A study of Mus musculus with 69 samples.

Results

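The genes described are 10 genes of renal phosphate and vitamin D handling: the phosphate carriers Slc34a1, Slc34a3, Slc20a1 and Slc20a2, the FGF23 co-receptor Kl (Klotho) and the receptor Fgfr1, the parathyroid hormone receptor Pth1r, the vitamin D enzymes Cyp27b1 and Cyp24a1, and the vitamin D receptor Vdr. They were chosen by gene name, and all 10 were listed in each of the 4 deposited tables, which hold 55487 genes at 24 h and 53700 genes at 72 h. The tables give RNA-seq values for tubules microdissected from the kidneys of wild-type male C57BL/6 mice, operated on at 7 weeks of age. PT-S1 stands for the proximal tubule's first segment, next to the glomerulus, and CCD for the collecting duct within the cortex. Mice had a kidney removed (UNx, for unilateral nephrectomy) by surgical excision or were sham-operated, and were studied 24 h or 72 h later. PT-S1 at 24 h comprised 3 sham and 4 UNx animals (8 and 9 libraries), and PT-S1 at 72 h comprised 5 and 5 animals (12 and 12 libraries). CCD at 24 h comprised 4 sham and 3 UNx animals (8 and 7 libraries), and CCD at 72 h comprised 4 and 4 animals (7 and 6 libraries). The animal was the replicate: each value below is the mean of an animal's libraries in TPM (a transcript's share of a library, corrected for its length and scaled to a fixed total). Errors of mean TPM are SD over animals, and errors of log2 differences are SE from limma. The tests used log2(TPM + 1). Each library pools the cells of a dissected tubule, so fewer cells of a type and less RNA per cell cannot be told apart.

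As background, filtered phosphate is recovered mainly in the proximal tubule through the sodium-coupled carriers NaPi-2a (Slc34a1) and NaPi-2c (Slc34a3) of the apical membrane, while PiT-1 (Slc20a1) and PiT-2 (Slc20a2) are broadly expressed carriers of the same ion. Parathyroid hormone, acting through its receptor Pth1r, and the bone hormone FGF23, acting through an FGF receptor with Klotho as its co-receptor, both reduce this uptake. The proximal tubule also makes active vitamin D with the 1-alpha-hydroxylase Cyp27b1, degrades it with the 24-hydroxylase Cyp24a1, and senses it with Vdr; FGF23 is known to lower Cyp27b1 and raise Cyp24a1, and parathyroid hormone to raise Cyp27b1.

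RefSeq promoter sequences were at hand for 7 of the 10 genes (not for Slc20a2, Fgfr1 and Cyp24a1), in the build GRCm38.p6. The 250 bases before the annotated start are shown for the gene with the lowest p-value in the proximal tubule after UNx (Kl), for the phosphate carrier with the most negative log2 difference there at 24 h (Slc34a3), and for the enzyme with the largest spread between animals (Cyp27b1). Capitals mark GGGCGG or its reverse complement (the GC box) in Kl, AGGTCA or its reverse complement (a nuclear receptor half-site) in Slc34a3, and CCAAT or its reverse complement in Cyp27b1.
Kl, chr5:150952357-150952606, plus strand: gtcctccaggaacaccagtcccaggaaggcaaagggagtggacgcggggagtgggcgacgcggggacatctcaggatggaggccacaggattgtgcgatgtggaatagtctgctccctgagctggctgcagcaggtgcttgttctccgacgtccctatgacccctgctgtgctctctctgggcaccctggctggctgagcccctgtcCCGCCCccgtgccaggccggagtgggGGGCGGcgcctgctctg
Slc34a3, chr2:25234235-25234484, minus strand: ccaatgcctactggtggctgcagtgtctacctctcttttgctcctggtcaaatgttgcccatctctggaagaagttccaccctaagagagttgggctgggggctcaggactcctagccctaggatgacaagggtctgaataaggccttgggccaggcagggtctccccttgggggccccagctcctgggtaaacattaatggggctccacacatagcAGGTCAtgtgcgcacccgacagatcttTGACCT
Cyp27b1, chr10:127047996-127048245, plus strand: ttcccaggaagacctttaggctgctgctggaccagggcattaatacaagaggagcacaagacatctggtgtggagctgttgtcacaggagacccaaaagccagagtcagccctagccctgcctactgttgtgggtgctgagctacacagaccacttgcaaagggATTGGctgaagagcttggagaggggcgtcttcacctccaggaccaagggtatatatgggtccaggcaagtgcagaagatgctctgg

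The Kl promoter held 2 GC boxes, which start 43 and 17 bases before the gene, and 66.8% of its bases were G or C, against a median of 52.4% over the 32851 RefSeq promoters of this length. A GC box was present in 32.7% of those promoters. The Slc34a3 promoter held 2 half-sites in opposite orientation, starting 33 and 6 bases before the gene, and 14.0% of promoters held at least 1. The Cyp27b1 promoter held 1 CCAAT motif, read on the opposite strand 86 bases before the gene, as did 33.8% of promoters on either strand. None of the 3 shown held TATAAA or TGACG on either strand, which were found in 12.4% and 17.8% of promoters. These matches describe letters only and say nothing of binding.

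Before the results, 5 libraries stood apart, with a median correlation with the other libraries of their table under 0.92. They were library 1 of sham animal 1 and library 2 of sham animal 3 in PT-S1 at 24 h, library 2 of UNx animals 1 and 2 in PT-S1 at 72 h, and library 2 of sham animal 1 in CCD at 72 h. Between 9247 and 14875 genes reached 1 TPM per library; TPM keeps no read totals, so the depth behind each value is unknown. The summed S1/S2 markers Slc5a2, Slc5a12, Slc4a4 and Slc22a6 lay between 2273 and 5075 TPM in PT-S1 animals and between 7.09 and 21.9 TPM in CCD animals, and the summed principal cell markers between 27.9 and 113 TPM and between 15222 and 58909 TPM. In PT-S1 the principal cell sum came almost wholly from Aqp3, which averaged 76.9 TPM in sham animals at 24 h and 34.6 TPM at 72 h. The other markers of that list, Aqp2, Avpr2, Scnn1b and Scnn1g, averaged 0.307 TPM or less in every PT-S1 group. Thick ascending limb markers were also present in CCD at 24 h, with higher means in sham: Umod averaged 1000.3 TPM in sham against 139 TPM in UNx animals, Slc12a1 119.9 against 2.04 TPM and Cldn16 9.03 against 2.24 TPM. With Kcnj1, which principal cells also express, the 4 markers summed to 1237 to 5146 TPM in sham against 1722 to 1932 TPM in UNx animals, and library 1 of sham animal 2 held 8474 TPM of them; their part in the CCD results at 24 h was not tested. With limma over all genes of at least 1 TPM on average, 0 of 11874 genes passed an adjusted p of 0.05 in PT-S1 at 24 h and 0 of 11886 at 72 h, while 2109 and 2432 had an unadjusted p under 0.05. In CCD, 136 of 13775 genes passed at 24 h and 82 of 13770 at 72 h.

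In sham animals, 5 of the 10 genes had at most 1.67% of their PT-S1 level in CCD, and the other 5 had 23.6% or more. In PT-S1 of sham animals at 24 h, Slc34a1 was the most abundant of the 10 genes, at 9082 ± 946 TPM (n = 3). In sham CCD it stood at 30.3 ± 19.5 TPM (n = 4), so that the CCD level was 0.333% of that in PT-S1, and 0.25% at 72 h. Slc34a3 followed the same distribution, at 287 ± 37.0 TPM in PT-S1; in CCD it was listed at 0 in 18 of 28 libraries and reached at most 0.51 TPM. Pth1r stood at 709 ± 62.8 TPM in PT-S1 and had 1.67% of that level in CCD at 24 h and 1.42% at 72 h. Both vitamin D enzymes were far lower in CCD too: Cyp27b1 did not exceed 1.14 TPM in any CCD library, and Cyp24a1 did not exceed 2.86 TPM.

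The broadly expressed carrier Slc20a2 had 104% of its PT-S1 level in CCD at 24 h and 162% at 72 h, and Slc20a1 had 62.3% and 119%. Kl, which encodes Klotho, stood in sham CCD at 93.6 ± 4.04 TPM at 24 h and 113 ± 31.6 TPM at 72 h, and in sham PT-S1 at 219 ± 109.7 and 113 ± 28.1 TPM. The distal convoluted tubule is known for high Klotho; its markers Slc12a3, Pvalb and Trpm6 summed to 1.51 to 3.43 TPM in the sham CCD animals at 24 h and 1.36 to 3.15 TPM at 72 h, mostly from Trpm6, with Slc12a3 at 0.112 and 0.154 TPM. No marker list of the connecting tubule was drawn up, although the calcium handling genes Trpv5 and Calb1 are given below. The part of either segment in the Kl level was not tested. The receptor Vdr had 23.6% and 55.5% of its PT-S1 level, and Fgfr1 95.7% and 172%. The tables had been normalized separately, so these ratios between segments and times are descriptions without a test.

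By sham mean in PT-S1 at 24 h, the order ran Slc34a1, Pth1r, Slc34a3, Cyp24a1, Kl, Vdr, Slc20a2, Cyp27b1, Fgfr1 and Slc20a1. Slc34a1, Pth1r and Vdr were each set off from the next gene by more than the spread of the animals. From Slc34a3 to Vdr the animals of neighbouring genes overlapped, since Cyp24a1 alone ranged from 52.2 to 324 TPM among 3 sham animals. In sham CCD at 24 h the order was Kl, Vdr, Slc20a2, Slc34a1, Fgfr1, Pth1r and Slc20a1, with the other 3 genes under 1 TPM. Kl was there clear of its neighbour, with a lowest sham animal of 88.9 TPM against a highest of 53.1 TPM for Vdr, and Vdr and Slc20a2 did not differ beyond their spread.

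**Figure D1:**
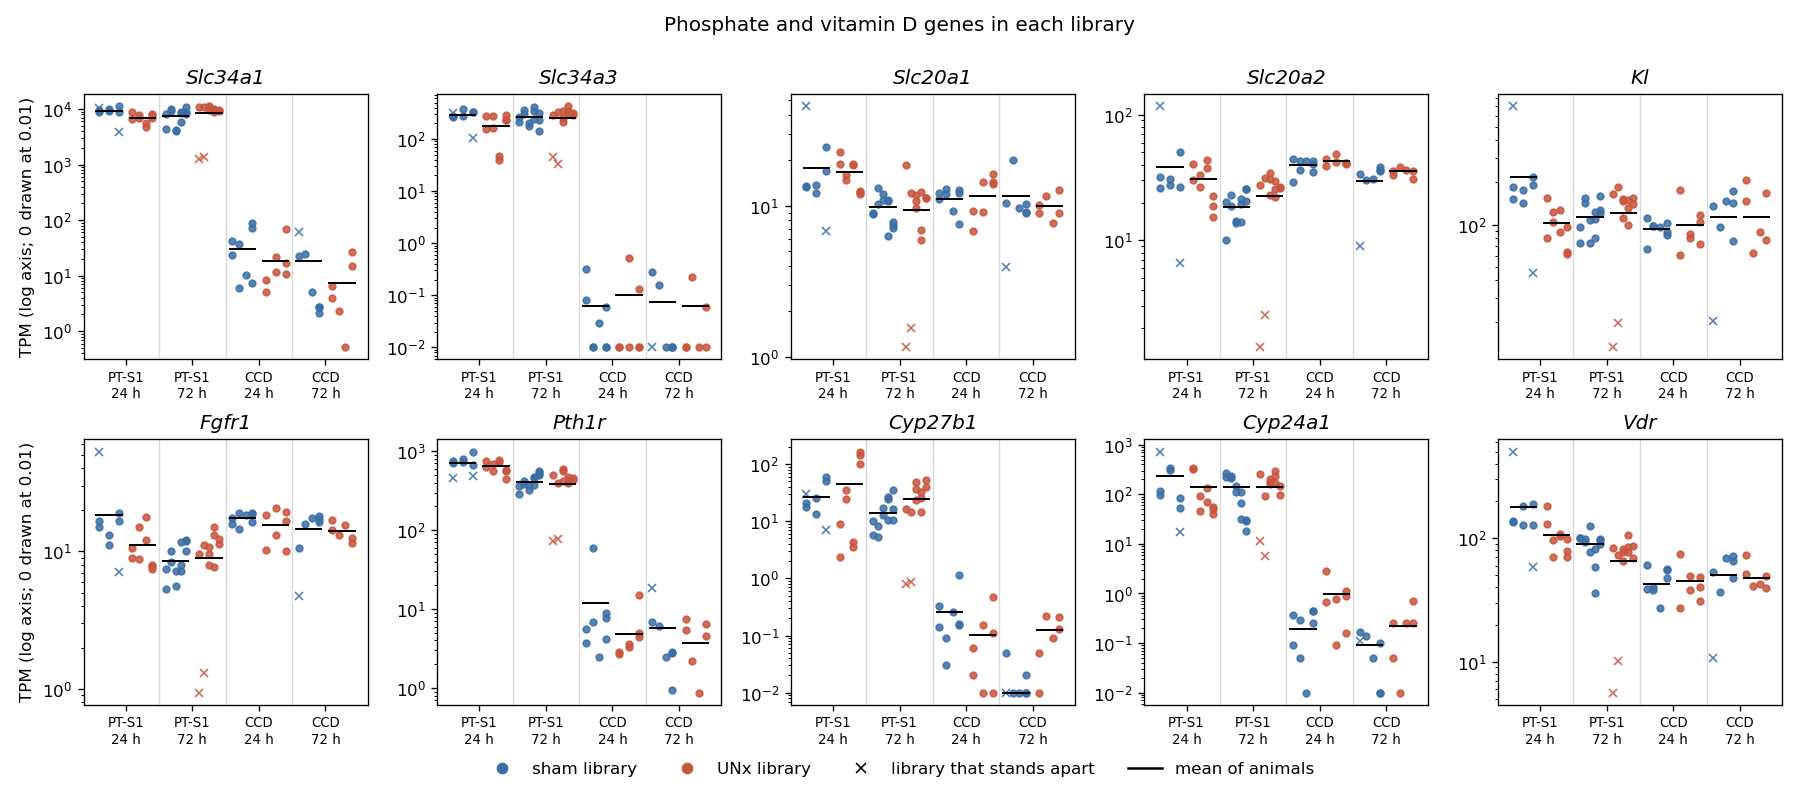
TPM of the 10 genes on log axes, 1 panel per gene, for every library of the 4 tables (blue sham, red UNx, crosses the libraries that stand apart, bars the mean of the animals; values of 0 are drawn at 0.01). Slc34a1, Slc34a3, Pth1r, Cyp27b1 and Cyp24a1 are far lower in CCD than in PT-S1, whereas Slc20a1, Slc20a2, Kl, Fgfr1 and Vdr keep 23.6% or more of their PT-S1 level; the 2 crosses of UNx at 72 h lie under every other PT-S1 library at 72 h for all 10 genes.

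The first comparison asked how PT-S1 of the remaining kidney differed from sham 24 h after UNx. The apical phosphate carriers and Klotho were lower in every UNx animal than in every sham animal, yet none of the 10 genes passed an adjusted p of 0.05, as none of all genes tested did (background 0%). An unadjusted p under 0.05 was found for 1 of the 10 genes, Kl, against 17.8% of all genes. In 3 of the 10, UNx animals lay wholly below sham, against 19% of all genes, and 9 of the 10 changes were negative. All genes together shifted by a median of -0.19 on the log2 scale, the 10 genes by -0.43, and -0.62 was left for Kl, -0.70 for Slc34a3 and -0.16 for Slc34a1 relative to the median of all genes. Relative to the same median, Fgfr1, Cyp27b1, Cyp24a1 and Vdr were also negative. Slc20a1 (0.28), Slc20a2 (0.16) and Pth1r (0.087) were positive.

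Slc34a1, the main apical phosphate carrier, measured 9699.8, 9553 and 7993 TPM in the 3 sham animals and 7720.4, 7384, 5226 and 7636 TPM in the 4 UNx animals. All 4 UNx animals were below the lowest sham animal, and UNx animal 3 was the lowest. The means were 9082 ± 946 and 6992 ± 1186 TPM, and the log2 difference was -0.35 (95% interval -0.81 to 0.11, limma adjusted p = 0.363). Without the 2 sham libraries that stood apart it was -0.48 (adjusted p = 0.144).

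Slc34a3, the second apical carrier, measured 284, 326 and 252 TPM in sham against 212, 221, 42.8 and 249 TPM in UNx animals. UNx animal 3 was far under the rest, and both of its libraries were low, at 39.1 and 46.5 TPM, while the highest UNx animal reached nearly to the lowest sham animal. The log2 difference was -0.90 ± 0.51 (SE; adjusted p = 0.348), and without UNx animal 3 it was -0.31. The S3 markers Slc7a13, Cyp7b1, Slc22a13 and Slc6a18, which mark the last part of the proximal tubule, summed to 343 and 499 TPM in the libraries of UNx animal 3, against 8.24 to 207 TPM in the sham libraries. In UNx animal 2 the library with 690.5 TPM of S3 markers had 159 TPM of Slc34a3, and the one with 14.4 TPM had 282 TPM. Over animals, the S3 sum ranged from 19.5 to 88.8 TPM in sham against 25.4 to 421 TPM in UNx, and the S1/S2 sum from 3579.9 to 5075 TPM and 2673 to 3884 TPM; all 4 markers of each list were detected. Of the S1/S2 markers, Slc5a2 (2915 TPM in sham against 1989 TPM in UNx), Slc5a12 (306 against 182) and Slc4a4 (751 against 436) had lower means in UNx, while Slc22a6 had a higher one (356 against 791). Without the libraries that stood apart the sham animals had 19.5 to 119 TPM of S3 and 3638 to 4518 TPM of S1/S2 markers, and the part of the markers in the lower carrier levels was not tested.

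Kl had the smallest p of the 10 genes. Its sham animals measured 346, 160.0 and 152 TPM and its UNx animals 117, 114, 107 and 74.1 TPM, so the groups did not overlap. In sham animal 1 the library that stood apart read 699.6 TPM against 152 and 187 TPM in the other libraries of that animal, while the one of sham animal 3 read 45.2 TPM; without the 2 such libraries the sham animals measured 169, 160.0 and 206 TPM and still lay above all UNx animals. The log2 difference was -0.81 ± 0.26 (SE; limma p = 0.0109, adjusted p = 0.254), and -0.83 ± 0.18 without those libraries (adjusted p = 0.0848). Among the alternative settings tried, it passed the threshold only where animals were weighted by their quality, at -0.59 (limma adjusted p = 0.0491). With those weights 1426 of 11874 genes passed. Without sham animal 1 the Kl difference was -0.50 (limma adjusted p = 0.672). The distal convoluted tubule markers were low and also lower in UNx, at 1.08 to 1.29 TPM in sham against 0.295 to 0.93 TPM in UNx animals (all 3 markers detected), and at 1.0 to 1.2 TPM in sham without the libraries that stood apart. Most of the sum was Slc12a3, at 0.996 TPM in sham against 0.45 TPM in UNx animals. The sum was lowest in UNx animal 2, whereas Kl was lowest in UNx animal 4, where the sum was 0.50 TPM. The part of these markers in the Kl level was not tested.

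Among the receptors, Vdr measured 258, 155 and 125 TPM in sham against 156, 83.6, 106 and 82.3 TPM in UNx animals, so the groups overlapped through UNx animal 1. Its log2 difference was -0.58 (adjusted p = 0.286). Fgfr1 gave -0.52 and Pth1r -0.11, with animals of both groups interleaved. The broadly expressed carriers gave 0.083 for Slc20a1 and -0.037 for Slc20a2, with intervals of -0.42 to 0.58 and -0.70 to 0.63 that allow changes of either sign. Adjusted p-values of the 10 genes ranged from 0.254 to 0.952. Without the libraries that stood apart, Kl, Slc34a1 and Vdr had an unadjusted p under 0.05, 3 of 10 genes against 24.7% of all genes, and none passed after adjustment (1 of 11812 genes did, 0.00847%). Slc34a1, Slc34a3 and Kl again had all UNx animals below all sham animals, as 21.2% of all genes did.

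**Figure D2:**
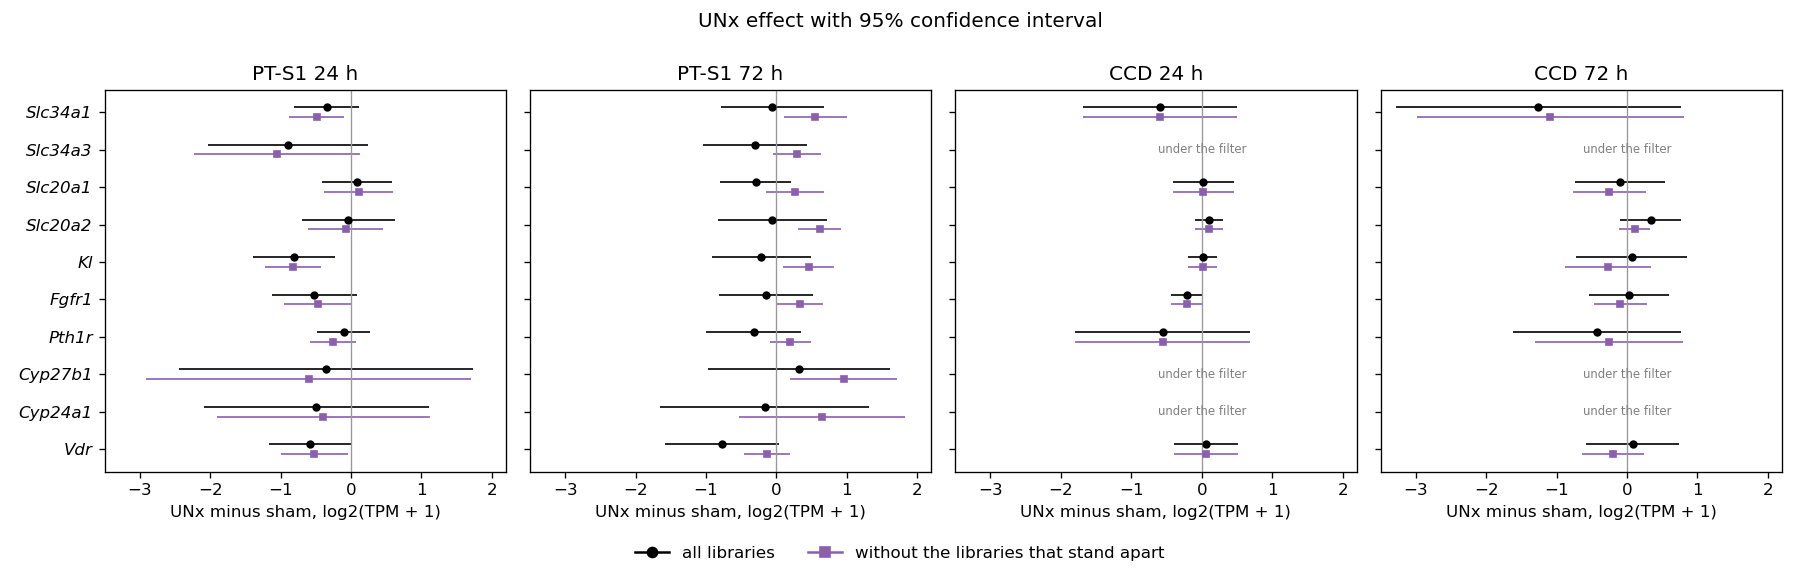
Difference between UNx and sham in mean log2(TPM + 1) for each gene and table, with 95% confidence intervals from limma (black circles all libraries, purple squares without the libraries that stand apart). At 24 h in PT-S1 the interval of Kl lies below 0 in both, from -1.40 to -0.23 with all libraries; at 72 h the purple squares lie right of the black circles for all 10 genes.

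The second comparison concerned PT-S1 at 72 h, where the result depended on which libraries were used. With all libraries, 9 of the 10 changes were negative, the median was -0.19 and that of all genes -0.29. No gene of the 10 passed the adjusted threshold (background 0%), and none had an unadjusted p under 0.05 (20.5% of all genes did). Library 2 of UNx animals 1 and 2 read lower than every other library at 72 h for all 10 genes. In these libraries Slc34a1 measured 1272 and 1360.3 TPM, against 10881 and 11075 TPM in the other library of the same animals. Without them, 1 of the 10 changes was negative, the median was 0.40, and that of all genes -0.021. An unadjusted p under 0.05 was then found for 5 of 10 genes, against 17.7% of all genes in either direction. All 5 were higher in UNx, as 9.6% of all genes were at that level. None of the 10 passed after adjustment (1 of 11954 genes did, 0.00837%).

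Those 5 genes were Slc20a2, Kl, Cyp27b1, Slc34a1 and Fgfr1. The carrier Slc20a2 had the smallest p: without the 2 libraries, sham animals measured 15.1, 20.9, 14.0, 18.3 and 23.9 TPM and UNx animals 27.6, 31.1, 29.2, 25.7 and 26.4 TPM. All 5 UNx animals lay above all 5 sham animals, which 1.34% of all genes also showed. The log2 difference was 0.62 ± 0.14 (SE; p = 0.000858, limma adjusted p = 0.191), against -0.059 (adjusted p = 0.925) with all libraries, where UNx animals 1 and 2 measured 14.5 and 16.8 TPM.

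Slc34a1 at 72 h measured 6237, 9559, 4153, 7786 and 9189 TPM in sham against 6076, 6217, 10555, 9398 and 9473 TPM in UNx animals with all libraries, and 10881 and 11075 TPM in UNx animals 1 and 2 without the libraries that stood apart. Sham animals spread widely, with animal 3 at the low end in both of its libraries. The log2 difference changed from -0.058 to 0.55 (adjusted p = 0.216). With all libraries the mean TPM was nevertheless higher in UNx (8344 ± 2058 against 7385 ± 2231 TPM), so the mean TPM and the mean log2 value differed in sign. The log2 difference of Slc34a3 turned too, from -0.30 with all libraries to 0.30 without them, while its mean TPM with all libraries was lower in UNx (257 ± 79.2 against 262 ± 64.1 TPM). Kl measured 84.8, 149, 90.8, 105 and 136 TPM in sham and, without those libraries, 164, 186, 137, 127 and 148 TPM in UNx animals; the groups overlapped, and the difference was 0.46 (adjusted p = 0.212), against -0.21 with all libraries. The S1/S2 markers summed to 2273 to 4179 TPM in sham against 2382 to 4728 TPM in UNx animals at 72 h with all libraries. Without the libraries that stood apart they summed to 2272.6 to 4179.0 TPM in sham against 4179.3 to 4727.8 TPM in UNx animals, so that all 5 UNx animals lay above all 5 sham animals, as for Slc20a2; their part in the higher levels of the 5 genes was not tested. The receptor Vdr was the 1 gene of the 10 that stayed negative, at -0.77 with all libraries (adjusted p = 0.251) and -0.13 without those libraries.

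Pairs of UNx effects were compared by testing 1 effect minus the other in a limma model of the 4 groups. With all libraries none of the 31 differences passed: 0 of 10 genes for PT-S1 at 24 h against 72 h (background 0%), 0 of 7 for CCD at 24 h against 72 h (0%), 0 of 7 for PT-S1 against CCD at 24 h (0.137%) and 0 of 7 at 72 h (0%). An unadjusted p under 0.05 was found once, for Kl in PT-S1 against CCD at 24 h; the shares of all genes at that level were 3.33%, 4.96%, 15.4% and 9.33% in the same order. Kl was -0.81 at 24 h and -0.21 at 72 h in PT-S1, a difference of -0.60 ± 0.47 (adjusted p = 0.998). Against CCD at 24 h, where the effect was 0.016, the difference was -0.83 ± 0.30 (p = 0.0147, adjusted p = 0.239).

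Without the libraries that stood apart, the Klotho difference between the times in PT-S1 was -1.28 ± 0.26 (SE; limma adjusted p = 0.0334), from effects of -0.83 at 24 h and 0.46 at 72 h. It was then 1 of 187 genes of 11443 that passed (1.63%), and the 1 of the 10 genes that did. When each of the 17 animals was left out in addition, the difference ranged from -1.40 to -1.14, and the adjusted p from 0.0115 to 0.117; it stayed under 0.05 in 7 of the 17. Leaving out any of the 3 sham animals at 24 h ended the call, as did leaving out UNx animals 1 or 2 at 24 h, sham animals 1 or 4 at 72 h, or UNx animals 1, 2 or 5 at 72 h. With the tables also scaled to equal median ratios it was -1.05 (adjusted p = 0.121). The apical phosphate carriers had differences of the same sign, at -1.04 for Slc34a1 (adjusted p = 0.071) and -1.35 for Slc34a3 (adjusted p = 0.151), and with all libraries these were -0.29 and -0.60. Without those libraries 6 of the 10 genes had an unadjusted p under 0.05 for this difference, against 22.6% of all genes. Kl in PT-S1 against CCD at 24 h, which shares the PT-S1 animals with the former test, gave -0.84 ± 0.21 (adjusted p = 0.0524; 1.64% of all genes passed). The labels repeat animal names across the segments, but whether such animals are the same mice is not given in the sources used here, and these tests treat them as independent. With same-numbered animals of both segments as a block, an alternative added after the data were seen, the Kl difference at 24 h was -0.83 ± 0.30 (adjusted p = 0.255) with all libraries and -0.83 ± 0.20 (adjusted p = 0.0397) without those that stood apart, where 374 of 10945 genes passed.

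**Figure D3:**
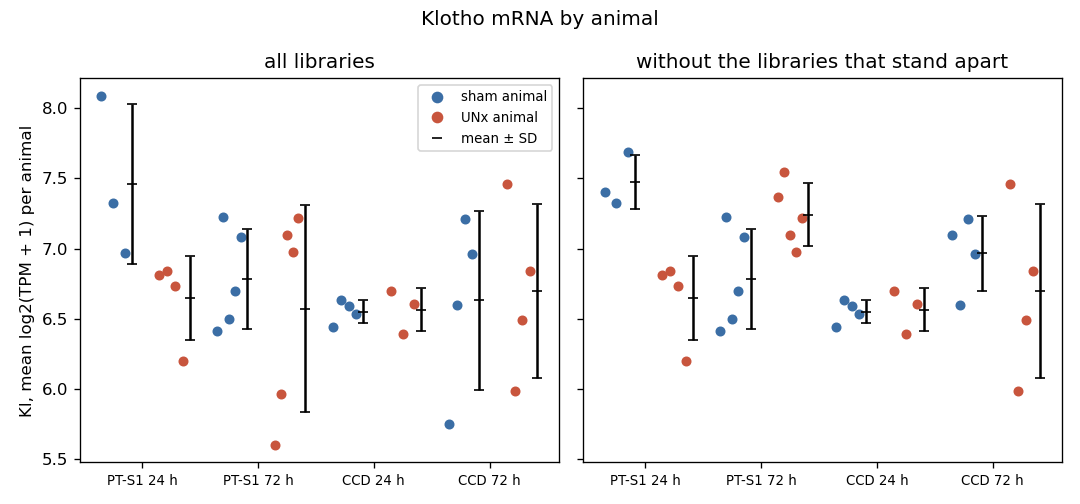
Mean log2(TPM + 1) of Kl in each animal (blue sham, red UNx; bars give mean ± SD) in the 4 tables, with all libraries on the left and without the libraries that stand apart on the right. In PT-S1 at 24 h the 4 UNx animals lie below the 3 sham animals in both panels; at 72 h the UNx mean lies below the sham mean on the left and above it on the right.

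In the collecting duct, 7 of the 10 genes passed the filter on low values, and none of them passed the adjusted threshold at 24 h (0.987% of all genes did) or at 72 h (0.595%). None had an unadjusted p under 0.05 either, against 15.5% and 7.49% of all genes. Without the CCD library that stood apart at 72 h, again 0 of 7 passed (0.937% of all genes) and 0 of 7 had an unadjusted p under 0.05 (14.2%), and Kl was -0.27. Kl at 24 h measured 88.9, 98.1, 95.5 and 91.8 TPM in sham against 118, 83.2 and 98.2 TPM in UNx animals, with a difference of 0.016 and an interval of -0.19 to 0.22. That interval is the narrowest of the Kl results and does not reach the estimate of -0.81 in PT-S1 at 24 h, whose own interval was -1.40 to -0.23. The direct limma test of the difference between these effects did not pass with all libraries (adjusted p = 0.239). At 72 h UNx animals spread from 62.4 to 178 TPM, and the interval was -0.73 to 0.86. The carrier Slc20a2 had the narrowest interval of the 14 CCD tests, at 36.8, 39.4, 43.1 and 39.4 TPM in sham against 41.3, 45.1 and 41.1 TPM in UNx animals at 24 h, a difference of 0.11 (interval -0.090 to 0.30). Fgfr1 at 24 h gave the smallest p of the 14 CCD tests on these genes, with -0.21 (p = 0.0696, adjusted p = 0.372), and Vdr gave 0.064 and 0.081 at 24 h and 72 h.

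Slc34a1 and Pth1r were found at low level in CCD libraries. Slc34a1 measured 41.2, 24.9, 5.02 and 2.54 TPM in the sham and 5.15, 2.29, 0.51 and 20.9 TPM in the UNx animals at 72 h, and single libraries of the 24 h table ranged from 5.04 to 89.7 TPM. Its log2 difference was -0.59 at 24 h and -1.26 at 72 h, with intervals of -1.69 to 0.51 and -3.28 to 0.76. The summed S1/S2 markers stood beside it at 14.0 to 21.1 TPM (sham) and 10.4 to 21.9 TPM (UNx) at 24 h. At 72 h the sums were 9.2 to 14.8 and 7.09 to 12.5 TPM, with all 4 markers detected. Most of the sum was Slc4a4, with means of 10.7 TPM (sham) and 9.3 TPM (UNx) at 24 h and 8.21 and 8.07 TPM at 72 h. Slc5a2 averaged 1.61 and 0.969 TPM at 24 h and 1.77 and 0.594 TPM at 72 h. Slc5a12 was also lower in UNx at both times, and Slc22a6 at 72 h only. The S3 marker Slc7a13 averaged 7.13 and 2.37 TPM at 24 h and 7.18 and 0.704 TPM at 72 h. Slc6a18, Slc22a13 and Cyp7b1 had lower UNx means at both times. The part of these markers in the Slc34a1 level was not tested. Pth1r at 24 h measured 4.65, 33.3, 2.45 and 6.92 TPM in sham animals, where a single library of animal 2, at 59.8 TPM, set the high value; the other library of that animal read 6.77 TPM. The thick ascending limb markers summed to 8474 TPM in the former and 1818 TPM in the latter, and to 1084 to 2478 TPM in the other sham libraries; their part in this Pth1r value was not tested.

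Slc34a3, Cyp27b1 and Cyp24a1 were under the filter in CCD and were compared by exact two-sided permutation tests over animals, 6 in all. Cyp24a1, the enzyme that degrades active vitamin D, measured 0.23, 0.17, 0 and 0.383 TPM in the sham and 1.76, 0.43 and 0.713 TPM in the UNx animals at 24 h, all UNx above all sham, as for 5.71% of the genes tested in that table. The difference on the log2(TPM + 1) scale was 0.61 (exact p = 0.0286, the smallest that 3 against 4 animals allow, and 0.171 adjusted over the 6 tests). UNx libraries ranged from 0.09 to 2.86 TPM, so libraries of both groups overlapped. At 72 h the animals overlapped (exact p = 0.314). Cyp27b1 in CCD stayed at or under 0.483 TPM in every animal.

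In PT-S1 the vitamin D enzymes had the widest spread between animals among those of the 10 genes with at least 10 TPM at both times. Cyp27b1 at 24 h measured 22.6, 19.4 and 38.9 TPM in sham against 5.57, 30.0, 3.92 and 136 TPM in UNx animals; UNx animal 4 was the highest and UNx animals 1 and 3 the lowest of all. Cyp24a1 measured 314, 324 and 52.2 TPM in sham against 332, 70.1, 102 and 48.4 TPM in UNx animals. Libraries of an animal mostly kept together: the 3 libraries of UNx animal 4 read 102, 165 and 141 TPM for Cyp27b1 and 55.2, 49.7 and 40.3 TPM for Cyp24a1, while those of UNx animal 1 read 8.79 and 2.35 TPM and 323 and 341 TPM. The UNx effects at 24 h were -0.36 and -0.49, with intervals of -2.45 to 1.73 and -2.09 to 1.10, which allow several-fold changes either way. For Cyp27b1 the mean TPM was higher in UNx, through animal 4, although the mean log2 value was lower.

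At 72 h Cyp27b1 measured 7.91, 6.83, 14.9, 20.5 and 20.6 TPM in sham against 8.55, 7.76, 36.3, 24.2 and 46.3 TPM in UNx animals, and 16.3 and 14.7 TPM in UNx animals 1 and 2 without the libraries that stood apart. Its log2 difference was 0.32 with all libraries (limma adjusted p = 0.733) and 0.95 ± 0.35 without those that stood apart (adjusted p = 0.214). With animals weighted by quality it was 1.69 (limma adjusted p = 0.0132), a setting where 1346 of 11886 genes passed. Cyp24a1 at 72 h ran from 26.0 to 249 TPM in sham animals, the lowest being animal 5, whose 3 libraries read 29.4, 18.4 and 30.3 TPM. Its UNx effect was -0.17, and 0.65 without the libraries that stood apart (adjusted p = 0.565).

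The spread was set against that of all genes as the pooled SD between animals of a group, without the libraries that stood apart. In PT-S1 it was 1.25 for Cyp27b1, 1.11 for Cyp24a1 and 0.61 for Slc34a3 on the log2 scale, against a median of 0.20 over 6330 genes of at least 10 TPM. A larger spread was found for 0.348%, 0.458% and 2.26% of those genes. Between libraries of an animal the SD of Cyp27b1 was 0.55 and that of Cyp24a1 0.45, so both varied more between animals than within them. Kl, Vdr, Slc20a2 and Slc34a1 had an SD between animals of 0.29, 0.29, 0.30 and 0.31, and Pth1r 0.21, near the median. In CCD, Slc34a1 had 1.26 against a median of 0.17 over 8469 genes, and Slc20a2 had 0.10, lower than 90.0% of them. With all libraries the PT-S1 values were 1.41, 1.33 and 0.76 for the first 3 genes, against a median of 0.36.

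**Figure D4:**
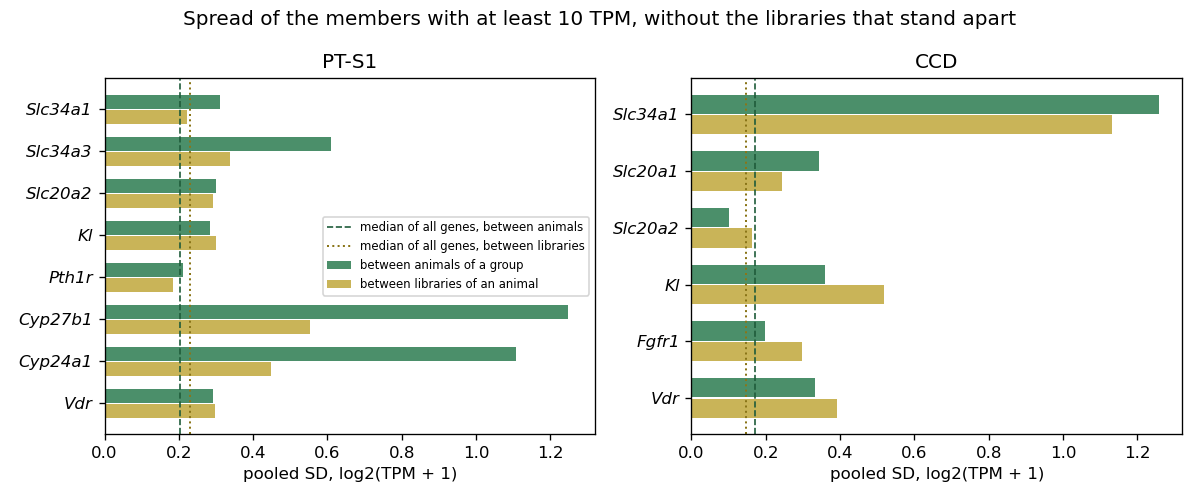
Pooled SD of log2(TPM + 1) between animals of a group (green) and between libraries of an animal (yellow) for the genes with at least 10 TPM, with the medians over all such genes as lines, without the libraries that stand apart. Cyp27b1, Cyp24a1 and Slc34a3 exceed the other genes in PT-S1, and Slc34a1 does in CCD.

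Cyp27b1 and Cyp24a1 were correlated over animals as log2 values centred on the mean of each table, and no correlation passed a test. Over the 17 PT-S1 animals, Pearson's r was -0.14 and Spearman's rho -0.19 with all libraries (permutation p = 0.602 and 0.494, two-sided), and -0.45 and -0.47 without the libraries that stood apart (permutation p = 0.0851 and 0.0765). Without the 2 animals farthest from the median of Cyp27b1, r was -0.032 with all libraries and -0.46 without those that stood apart. Within the 7 animals at 24 h, r was -0.56 and rho -0.68 with all libraries (exact permutation p = 0.199 and 0.110), and -0.65 and -0.75 without those that stood apart (exact permutation p = 0.116 and 0.0663). Within the 10 animals at 72 h the sign depended on the libraries: r was 0.27 and rho 0.28 with all of them (permutation p = 0.450 and 0.426), and -0.22 and -0.25 without those that stood apart (permutation p = 0.544 and 0.494). This pair was chosen after its values were seen and is the 1 pair tested among 28 pairs of 8 genes.

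**Figure D5:**
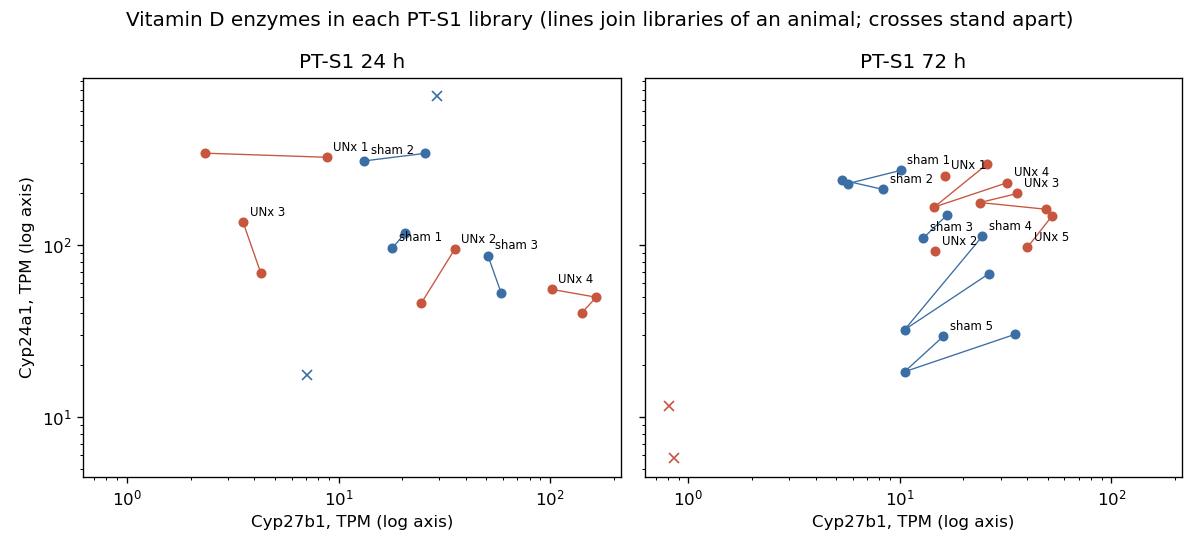
TPM of Cyp24a1 against Cyp27b1 on log axes in each PT-S1 library at 24 h and 72 h (blue sham, red UNx; lines join libraries of an animal, crosses are the libraries that stand apart). UNx animal 4 at 24 h sits at the lower right, with 102 to 165 TPM of Cyp27b1, and UNx animal 1 at the upper left; at 72 h sham animal 5 has the lowest Cyp24a1 apart from the crosses.

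For each gene of at least 10 TPM, the 2 genes with the most similar pattern over the animals of a segment were sought by Pearson's r on table-centred log2 values, given as descriptions with no p. In PT-S1 (17 animals, 6128 genes), Slc34a3 was closest to Slc5a2, the sodium-glucose carrier of the early proximal tubule (r = 0.96), and to Col8a1 (0.95). Slc34a1 was closest to F13b (0.97) and Ctsf (0.96), and both pairs remained first without the libraries that stood apart (0.96 for Slc34a3 with Slc5a2 and 0.95 for Slc34a1 with F13b). Slc20a2 was closest to Fut8 (0.97) and Stt3b (0.97), Kl to Slc12a7 (0.96) and Tbcd (0.96), Pth1r to Cdk5rap3 (0.97) and Emc10 (0.96), and Vdr to Ndel1 (0.96) and Strn3 (0.96). Without those libraries the closest genes were Stt3b for Slc20a2 (0.96), Uba1 for Kl (0.96), Fgfr4, a receptor for FGF23, for Pth1r (0.94) and Bcl2l1 for Vdr (0.83). The enzymes had weaker neighbours: Cyp27b1 was closest to Zfp36, an RNA-binding protein of the immediate early response (0.78), and Hdhd3 (0.78), and Cyp24a1 to Nedd9 (0.74) and Tamm41 (0.73). Without those libraries Zfp36 had 0.72 with Cyp27b1 and Tamm41 had 0.63 with Cyp24a1.

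In CCD (15 animals, 8190 genes), Slc34a1 was closest to Acsm2 (0.94) and Slc27a2 (0.94), both proximal tubule genes. Kl was closest to Trpv5 (0.90, and 0.91 without the library that stood apart), the apical calcium channel of the distal nephron that Klotho is known to act on. Trpv5 itself measured 10.6 ± 2.66 TPM in sham against 11.2 ± 1.19 TPM in UNx animals at 24 h. With all libraries, the second closest gene to Kl was Fbxl4 (0.85). Slc20a2 was closest to Ssrp1 (0.97) and Med24 (0.96), Slc20a1 to Ccser1 (0.86) and Seh1l (0.86), Fgfr1 to Chdh (0.96) and Nfatc3 (0.96), and Vdr to Def8 (0.95) and Srebf2 (0.90). Without the library that stood apart the closest genes were Thtpa for Slc20a2 (0.80), Atg16l2 for Slc20a1 (0.80), Rbbp6 for Fgfr1 (0.87) and Hpcal1 for Vdr (0.85).

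Of 48 other genes of the pathway, 30, 30, 33 and 32 passed the filter in PT-S1 at 24 h and 72 h and in CCD at 24 h and 72 h, and none passed the adjusted threshold in either direction in any table. They comprised further phosphate carriers, scaffolds of the apical carriers, FGF23 and parathyroid hormone signalling, vitamin D uptake and activation, calcium handling, and stanniocalcins with pyrophosphate genes. An unadjusted p under 0.05 was found for 6, 4, 5 and 1 of them, beside 17.8%, 20.5%, 15.5% and 7.49% of all genes. Their median change was -0.17, -0.39, -0.050 and 0.0013, against -0.19, -0.29, -0.038 and 0.010 over all genes. Without the libraries that stood apart the medians were -0.24, 0.038, -0.050 and -0.082, against -0.21, -0.021, -0.038 and -0.072 over all genes. The sign of the pathway median turned at 72 h in both segments, as that of all genes did in CCD, and in PT-S1 14 of the genes were then negative, against 24 with all libraries.

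The smallest p-values in PT-S1 at 24 h belonged to Rxra, the partner of Vdr in its DNA-binding dimer, and to the organic anion and phosphate carriers Slc17a1 and Slc17a3. Rxra stood at 45.0 ± 17.3 TPM in sham against 15.9 ± 8.18 TPM in UNx animals, with UNx wholly below sham, as for 19% of all genes. Its log2 difference was -1.43 (limma adjusted p = 0.254). Slc17a1 differed by 0.61 (adjusted p = 0.254) and Slc17a3 by 0.84 (adjusted p = 0.254), opposite in sign to Slc34a1. At 72 h they belonged to Slc9a3r2, a scaffold of apical carriers, at -0.81 (adjusted p = 0.237), to Gnas, the G protein subunit used by Pth1r, at -0.52 (adjusted p = 0.237), and to Frs2, an adaptor of FGF receptors, at -0.41 (adjusted p = 0.241); without the libraries that stood apart these were -0.37, -0.16 and -0.081.

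In CCD at 24 h the smallest p-values belonged to Calb1, the calcium buffer calbindin, at 328 ± 53.8 TPM in sham against 435 ± 36.1 TPM in UNx animals with a log2 difference of 0.41 (adjusted p = 0.154), to Stc1 and to the calcium pump Atp2b1. Stc1, which encodes the secreted factor stanniocalcin-1, stood at 142 ± 27.2 and 70.5 ± 30.9 TPM at 24 h, with all UNx animals below all sham animals, as for 9.3% of all genes. At 72 h it stood at 119.8 ± 79.2 and 45.3 ± 7.02 TPM, with UNx again wholly below sham, as for 1.82% of all genes. Its differences were -1.04 (adjusted p = 0.178) and -1.21 (adjusted p = 0.247). At 72 h Stc1 had the smallest p, followed by the 25-hydroxylase Cyp2r1 at 0.39 (adjusted p = 0.756) and by Calb1 at 0.34 (adjusted p = 0.784). Atp2b1 at 24 h differed by -0.26 (adjusted p = 0.20).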

How the data were processed

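Proximal tubules (PT-S1) and cortical collecting ducts were measured in 69 RNA-seq libraries. The authors deposited TPM values per gene, in 1 table per segment and time; per the submitters' processing notes, the tools were STAR and RSEM 1.3.3 with the build GRCm39. Of the 69 value columns, 51 were matched to a sample and 18 to a group and animal only, and no 2 columns were identical. TPM keeps no depth, so no interval on counts is given. From the deposited TPM, log2(TPM + 1) was averaged over the libraries of each animal and tested with limma 3.58.1 (R 4.3.3, trended empirical Bayes, two-sided), adjusted by Benjamini-Hochberg over all genes with a mean of at least 1 TPM, with a threshold of 0.05. The difference between UNx effects was a contrast of 4 groups. Exact permutation tests served genes under that filter. The scripts were tested on simulated data.

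The 10 genes, the pathway list and the marker lists were chosen with earlier results of these data known. All 10 genes are named in every table; of the pathway list, those passing or else the 3 with the smallest p per table; and the 2 most similar genes per gene of at least 10 TPM. Days and batches are not given in the sources used here, and p-values measure the spread between these animals. Alternatives were another pseudocount, filters, scalings, averaging, weights, a random effect of animal, a block, and leaving out animals or libraries. After the data were seen, leaving out each animal together with the libraries that stand apart, and rescaling without them, were added for Kl, and a block of same-numbered animals across segments for PT-S1 against CCD.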

Additional observations from a re-analysis of the deposited data

Results flagged for a closer look

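Outliers were sought in 60 combinations of 1 gene and 1 group of at least 4 animals. In 7 of them, 1 animal lay farther from the rest than Dixon's criterion allows, which chance does in about 1 of 20. The genes of a group share its animals, so the combinations are not independent. The 7 flags therefore cannot be judged against that rate. In PT-S1 at 24 h, UNx animal 3 had the lowest Slc34a1, at 5226 TPM against 7384 to 7720 TPM in the others, and the lowest Slc34a3, at 42.8 TPM against 212 to 249 TPM. In the same group, UNx animal 4 had the lowest Kl, at 74.1 TPM against 107 to 117 TPM. In PT-S1 at 72 h, sham animal 4 had the lowest Vdr, at 58.8 TPM against 94.5 to 101 TPM. In CCD, Slc34a3 stood out in sham animal 1 at 24 h, at 0.20 TPM, and in UNx animal 2 at 72 h, at 0.22 TPM, with the other animals of each group at 0.03 TPM or less. In CCD at 72 h, sham animal 1 had the lowest Fgfr1, at 7.65 TPM against 15.8 to 17.5 TPM; this animal holds the library that stood apart.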

How the results depend on the processing

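The TPM tables hide depth, and 3 to 5 animals a group limit precision. Counts of genes called moved as follows (UNx against sham unless said). PT-S1 at 24 h gave 0, but 2 with no filter, 1 with median-ratio scaling, 100 with animal as a random effect, 1426 with array weights and 1 without the libraries that stand apart, and 0 to 8 when 1 animal was left out. PT-S1 at 72 h gave 0, but 10 with the random effect, 1346 with weights and 1 without those libraries, and 0 whichever animal was left out. CCD at 24 h gave 136, but 1 with no filter and 485 with the random effect (7 to 78 leaving out animals). CCD at 72 h gave 82, but 39 with a mean of at least 5 TPM, 7 with no filter and 129 without the library (8 to 73 leaving out animals). The difference between PT-S1 times gave 0, but 1 with no filter, 376 with weights and 187 without those libraries. PT-S1 against CCD at 24 h gave 15, but 9 with at least 5 TPM, 43 with no filter, 24 with quantile normalization, 53 with the random effect, 1468 with weights and 179 without those libraries (0 to 163 leaving out animals). PT-S1 against CCD at 72 h gave 0, but 1 with no filter, 2 with the random effect, 64 with weights and 9 without those libraries (0 to 1), and CCD at both times gave 0 (0 to 1). The causes were not tested.

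Log2 differences of the 10 genes that changed sign are these. With log2 of the mean TPM per animal the sign turned in PT-S1 24 h Slc20a1 -0.051, in PT-S1 72 h Slc34a1 0.20, Slc20a2 0.25, Kl 0.11, Fgfr1 0.037, Cyp24a1 0.25, in CCD 72 h Kl -0.062, Vdr -0.013. With median-ratio scaling the sign turned in PT-S1 24 h Slc20a2 0.20, Pth1r 0.13, in PT-S1 72 h Slc34a1 0.33, Slc34a3 0.084, Slc20a2 0.24, Kl 0.17, Fgfr1 0.12, Pth1r 0.069, Cyp24a1 0.20. With quantile normalization the sign turned in PT-S1 24 h Slc20a2 0.11, in PT-S1 72 h Slc20a1 0.024, Slc20a2 0.27, Kl 0.023, Fgfr1 0.15, Cyp24a1 0.077. With array weights the sign turned in PT-S1 24 h Slc20a2 0.032, Cyp27b1 0.15, in PT-S1 72 h Slc34a1 0.45, Slc34a3 0.22, Slc20a1 0.15, Slc20a2 0.57, Kl 0.42, Fgfr1 0.44, Pth1r 0.22, Cyp24a1 0.16, in CCD 24 h Kl -0.0038, Vdr -0.012, in CCD 72 h Kl -0.22, Fgfr1 -0.20, Vdr -0.26. With animal as a random effect the sign turned in PT-S1 72 h Slc20a2 0.0046, Cyp24a1 0.19, in CCD 24 h Vdr -0.033, in CCD 72 h Slc20a1 0.021. Without the libraries that stand apart the sign turned in PT-S1 72 h Slc34a1 0.55, Slc34a3 0.30, Slc20a1 0.26, Slc20a2 0.62, Kl 0.46, Fgfr1 0.34, Pth1r 0.20, Cyp24a1 0.65, in CCD 72 h Kl -0.27, Fgfr1 -0.095, Vdr -0.19. Leaving out 1 animal each, values that changed sign ranged in PT-S1 24 h Slc20a1 -0.044 to 0.27, Slc20a2 -0.29 to 0.25, Cyp27b1 -1.31 to 0.28, Cyp24a1 -1.34 to 0.098; in PT-S1 72 h Slc34a1 -0.24 to 0.15, Slc20a2 -0.24 to 0.22, Kl -0.37 to 0.031, Fgfr1 -0.30 to 0.075, Cyp27b1 -0.057 to 0.72, Cyp24a1 -0.66 to 0.31; in CCD 24 h Slc20a1 -0.17 to 0.24, Kl -0.051 to 0.10, Vdr -0.12 to 0.19, Slc34a3 -0.052 to 0.096; in CCD 72 h Slc20a1 -0.31 to 0.19, Kl -0.23 to 0.30, Fgfr1 -0.25 to 0.14, Vdr -0.20 to 0.30, Slc34a3 -0.084 to 0.023.

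With array weights, limma passed Kl in PT-S1 at 24 h (-0.59), where 1426 of 11874 genes passed. It also passed the differences of Kl from PT-S1 at 72 h (-1.01, 376 of 11455 genes) and from CCD at 24 h (-0.57, 1468 of 10988 genes). In PT-S1 at 72 h it passed Cyp27b1 (1.69) and, with its sign turned, Slc20a2 (0.57), among 1346 of 11886 genes. Without the libraries that stand apart, limma passed the first of these differences of Kl (-1.28), among 187 of 11443 genes. Same-numbered sham and UNx animals correlated between -0.37 and 0.33. Such values cannot show whether equal numbers mark a shared day or batch, since neither is given in the sources used here. With the number as a replicate block, the counts were 81 and 0 in PT-S1 and 0 and 3 in CCD at 24 h and 72 h, and Slc20a2 in PT-S1 at 24 h was 0.18. Between segments, same-numbered animals correlated between -0.24 and 0.15. With them as a replicate block, PT-S1 against CCD gave 14 genes at 24 h and 0 at 72 h with all libraries, and 374 and 2 without those that stand apart, where Kl at 24 h passed (-0.83).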
